A study of Mus musculus with 9 samples.

Results

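The genes described here are 10 members of the Notch pathway, chosen by name: the ligands Dll1, Dll4, Jag1 and Jag2, the receptors Notch1, Notch2 and Notch3, and the target genes Hes1, Hey1 and Heyl. All 10 were found among the 27370 genes of the count table, and all 10 passed the filter on low counts, which left 15103 genes for testing. Poly(A) RNA was sequenced from 2 kinds of mouse lymphoid fibroblast in 3 groups of 3 libraries, and each library pooled 2 mice. Every mouse, controls included, was 4 months old and carried the alleles Wt1CreERT2, RosatdTomato and CD64DTR. The first group was tdTomato-negative fibroblastic reticular cells (FRC) from 78 lymph nodes of untreated mice, the second tdTomato-positive red pulp fibroblasts (RPF) from the spleens of untreated mice, and the third RPF from mice given diphtheria toxin. In this model Wt1 drives a tamoxifen-inducible Cre that switches on tdTomato, so RPF are defined here by Wt1-driven labelling, and the toxin receptor is placed under CD64, a receptor of macrophages. The third group is called depleted below. The labels give 45000 cells and 6 mice per group and 12 mice in all, which leaves 6 untreated mice for both untreated groups, but no label ties libraries to mice. Reported p-values measure the spread between these pooled libraries.

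Libraries held 25414645 to 43879806 counts. CPM here are TMM-normalised, with each count scaled to its library's TMM-scaled size and not to its raw total. Gp38 (Pdpn) was one of the stained surface markers. It was at 74.1 ± 3.79 CPM (mean ± SD, n = 3) in FRC and at 0.0981 ± 0.0874 CPM in steady RPF. The reporter's driver gene, Wt1, was at 1.64 ± 1.18 CPM in FRC, 62.1 ± 2.57 CPM in steady RPF and 34.3 ± 6.55 CPM in depleted RPF. Summed levels of 10 fibroblast markers, led by Dcn and Col3a1, were 55200 to 59600 CPM in FRC, 6620 to 7710 CPM in steady RPF and 5710 to 6320 CPM in depleted RPF. Without Dcn the sums were 30500 to 31000, 6610 to 7660 and 5700 to 6310 CPM. At an edgeR adjusted p under 0.05, 8 of the 10 were lower in steady RPF than in FRC, beside 14.4% of all genes. The 1 that was higher, beside 11.5% of all genes, was Pdgfrb, with means of 515, 942 and 2331 CPM in FRC, steady RPF and depleted RPF. Counts from 4 Y-linked genes were 0 in FRC replicate 1 and 1 in steady RPF replicate 1, against 2285 to 6101 in each other library.

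Notch signalling passes between touching cells. A Delta or Jagged ligand on one cell pulls on a Notch receptor on its neighbour, the metalloprotease ADAM10 and then the gamma-secretase complex cut the receptor, and the freed intracellular domain enters the nucleus, where it joins RBPJ and a Mastermind protein to switch on genes such as those of the HES and HEY families. In lymphoid organs stromal cells are a known source of the ligands: stromal DLL1 acts through NOTCH2 in marginal zone B cells of the spleen, and DLL4 of lymph node stroma acts on T cells.

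Windows upstream of the annotated starts of Dll1 and Dll4 are shown first because these are the ligands whose levels lay furthest apart between the spleen and lymph node fibroblasts. The sequences are from RefSeq (GRCm38.p6), read 5′ to 3′ on the gene's strand and trimmed to bases outside the gene's own exons. Dll1 has 2 annotated starts, on the minus strand, with windows at chr17:15375977-15376073 (97 bases) and chr17:15376933-15377182 (250 bases). The window of start 1 lies within the gene's own span (15367354 to 15376872). It is cut where an exon of the gene begins, so it stops short of start 1 itself. The flank of Dll4 is on the plus strand at chr2:119325534-119325783 (250 bases). Capitals mark the E-box CAGCTG, a palindrome bound by basic helix-loop-helix proteins.
Dll1, start 1: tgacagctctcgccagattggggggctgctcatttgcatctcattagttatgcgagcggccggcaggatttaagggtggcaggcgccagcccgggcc
Dll1, start 2: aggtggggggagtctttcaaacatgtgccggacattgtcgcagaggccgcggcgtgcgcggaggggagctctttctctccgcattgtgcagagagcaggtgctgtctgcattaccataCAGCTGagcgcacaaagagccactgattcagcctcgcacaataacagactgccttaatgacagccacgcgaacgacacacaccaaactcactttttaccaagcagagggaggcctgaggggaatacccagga
Dll4: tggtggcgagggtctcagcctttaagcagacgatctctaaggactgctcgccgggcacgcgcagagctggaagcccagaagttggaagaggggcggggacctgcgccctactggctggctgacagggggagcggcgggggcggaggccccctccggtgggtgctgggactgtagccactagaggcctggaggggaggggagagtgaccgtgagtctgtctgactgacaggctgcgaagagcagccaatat

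Both strands were searched for the E-box and for TGGGAA, the core bound by RBPJ, and these motifs do not overlap. Dll1 start 2 held 1 E-box, 132 bases from the window's end. No TGGGAA was found in these 3 windows or in those of the other 4 members with a promoter entry that left bases to search (Jag1, Notch1, Notch2 and Notch3; that of Jag2 lay wholly in its own exons). Among 32851 promoter windows of 250 bases, 21.6% held TGGGAA and 13.0% held CAGCTG. These matches describe letters in the windows and nothing about which factors bind there.

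Dll1, the Delta ligand that marginal zone B cells depend on, was high in RPF and low in FRC. The gene (ENSMUSG00000014773, mm10 chromosome 17, 15367354 to 15376872, minus strand) was at 283, 269 and 270 CPM in the 3 steady RPF libraries and at 8.56, 0.341 and 5.37 CPM in FRC. Every RPF library therefore lay above every FRC library. The steady RPF level was 57.3-fold that of FRC (log2 fold change 5.84, SE 0.826, edgeR quasi-likelihood test, Benjamini-Hochberg adjusted p = 0.000872), and it passed in all 16 alternatives. In bulk RNA, fewer cells carrying a transcript and less transcript per cell cannot be told apart, which holds for every comparison below. In depleted RPF, Dll1 was at 479, 403 and 376 CPM, above all 3 steady RPF libraries. That difference did not pass the test in the fit across the 3 groups (log2 0.61, 95% interval -0.89 to 2.12, adjusted p = 0.589), and its call turned on how the spread was estimated: the adjusted p was 0.0081 when RPF groups were fitted without FRC and 0.024 with limma-voom, over a range of 0.0081 to 0.753 across 16 alternatives. Depleted RPF exceeded FRC 87.7-fold (log2 6.45, SE 0.849, adjusted p = 0.000435).

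Dll4 had the opposite arrangement, with more spread between libraries. Dll4 (ENSMUSG00000027314, chromosome 2, 119325784 to 119335962, plus strand), a ligand best known from sprouting vessels and from T cell instruction, was at 11.7, 22.9 and 45.5 CPM in FRC. In steady RPF it was at 1.51, 0.0395 and 0 CPM, which are 71, 2 and 0 counts (0 allows up to 0.0992 CPM). Depleted RPF had 0.0574, 0.0540 and 2.77 CPM, or 2, 2 and 124 counts. No RPF library reached the lowest FRC library, and within each RPF group 1 library held nearly all of the counts. Steady RPF against FRC gave a log2 fold change of -5.66 (SE 2.01, 95% interval -10.21 to -1.11, adjusted p = 0.0695), and depleted RPF against FRC gave -4.78 (SE 1.92, adjusted p = 0.0832). Neither passed the test. Without steady RPF replicate 1, the library with 71 counts, the first comparison passed (adjusted p = 0.0264), and it also passed with DESeq2 (adjusted p = 0.00159), with limma-voom (0.0166) and with only the compared groups fitted (0.042).

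The Jagged ligands did not differ past the threshold in any comparison. Jag1, on chromosome 2 (137081456 to 137116644, minus strand), was at 53.1, 87.8 and 39.2 CPM in FRC, 35.5, 48.7 and 43.4 CPM in steady RPF, and 40.6, 45.6 and 55.3 CPM in depleted RPF. These 3 ranges overlapped. Steady RPF against FRC had a log2 difference of -0.50 (95% interval -1.16 to 0.17, adjusted p = 0.261), and depleted against steady RPF one of 0.15 (-0.51 to 0.81, adjusted p = 0.788). Jag2 stayed at or below 2.49 CPM in all 9 libraries, with 0 counts in replicate 2 of steady RPF (up to 0.0592 CPM at 3 counts) and of depleted RPF (up to 0.0810 CPM). Its intervals were wide, from -5.84 to 3.42 for steady RPF against FRC.

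**Figure D1:**
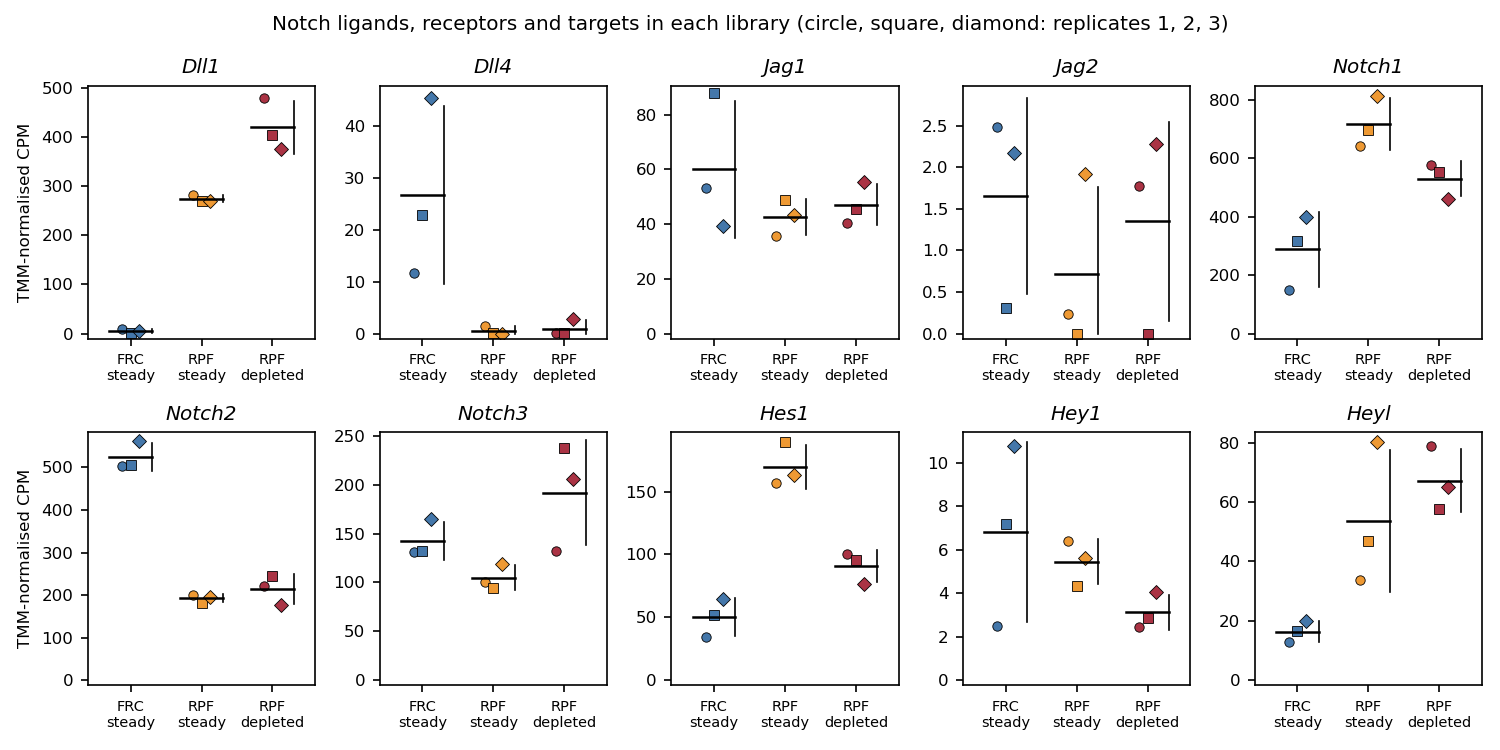
TMM-normalised CPM (vertical axis, linear and starting at 0 in each panel) of the 10 genes in FRC, steady RPF and depleted RPF. Symbols are libraries, horizontal lines group means and vertical lines ± 1 SD (n = 3, cut at 0). Dll1 sits at 269 CPM or more in all RPF libraries and at 8.56 CPM or less in FRC, while Notch2 sits at 505 CPM or more in FRC and at 245 CPM or less in RPF.

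To compare ligands with each other, CPM was divided by the length of each gene's longest coding transcript in kb. On this scale Dll1 made up 15.5%, 0.435% and 7.12% of the summed level of the 4 ligands in the FRC libraries, against 89.7% to 92.1% in steady RPF and 90.5% to 94.6% in depleted RPF. Jag1 was the largest ligand in FRC replicates 1 and 2 (61.1% and 71.4%), and Dll4 was the largest in FRC replicate 3 (57.7%, Jag1 33.2%). The FRC libraries thus differed among themselves in their leading ligand, whereas all 6 RPF libraries were led by Dll1. Summed over the 4 ligands, the level was 19.5 ± 3.50 CPM per kb in FRC, 84.4 ± 1.15 in steady RPF and 126.0 ± 13.6 in depleted RPF. Each depleted library (142, 121 and 116 CPM per kb) lay above each steady RPF library (83.6 to 85.7). Most of the sum in these libraries was Dll1, whose own difference after depletion did not pass (edgeR adjusted p = 0.589). Of all genes tested, 21.4% lay above without overlap in the same comparison.

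Among receptors, Notch1 was higher and Notch2 lower in steady RPF than in FRC. Notch1 (chromosome 2, 26457903 to 26516663, minus strand) was at 148, 318 and 400 CPM in FRC and at 641, 696 and 814 CPM in steady RPF, with no overlap. The ratio was 2.48-fold (log2 1.31, SE 0.308, adjusted p = 0.0134 by edgeR). Depleted RPF had 575, 551 and 461 CPM, which lay between the other groups without touching either. Against steady RPF this was a log2 difference of -0.44 (95% interval -1.12 to 0.25, adjusted p = 0.372), which passed when RPF groups were fitted without FRC (adjusted p = 0.0498). Against FRC it was 0.88 (0.18 to 1.57, adjusted p = 0.0516), which passed in 8 of 16 alternatives.

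Notch2, the receptor that marginal zone B cells depend on and that is also carried by stromal cells, was lower in RPF than in FRC. It lies on chromosome 3 (98013527 to 98150361, plus strand) and was at 505, 505 and 563 CPM in FRC, 199, 182 and 196 CPM in steady RPF, and 221, 245 and 176 CPM in depleted RPF. FRC stood above both RPF groups, which overlapped. Its level was 2.72-fold lower in steady RPF (log2 -1.45, SE 0.135, adjusted p = 7.05e-05) and 2.45-fold lower in depleted RPF (log2 -1.29, SE 0.135, adjusted p = 0.000107). Both passed in all 16 alternatives. Depleted against steady RPF differed by 0.15 on the log2 scale (95% interval -0.15 to 0.45, adjusted p = 0.487).

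Notch3, the receptor best known from pericytes and vascular smooth muscle, rose after depletion. It lies on chromosome 17 (32120820 to 32166880, minus strand) and was at 100, 94.4 and 119 CPM in steady RPF against 132, 237 and 206 CPM in depleted RPF. All depleted libraries were higher, replicate 1 by the smallest margin. The rise was 1.83-fold (log2 0.88, SE 0.215, adjusted p = 0.0197). It no longer passed without steady RPF replicate 1 (adjusted p = 0.0687) or 2 (0.0798), or without depleted replicate 2 (0.0744) or 3 (0.0641). FRC had 131, 132 and 165 CPM, and neither RPF group differed from FRC past the threshold (log2 -0.45 for steady, adjusted p = 0.167, and 0.43 for depleted, adjusted p = 0.152).

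Per kb of transcript, the receptor mix moved from Notch2 in FRC to Notch1 in RPF. Notch2 held 51.8 ± 7.42% of the summed level of these 3 receptors in FRC and Notch1 30.0 ± 9.15%. In steady RPF Notch1 held 70.6 ± 2.07% and Notch2 17.3 ± 1.78%. In depleted RPF Notch1 was at 55.8 ± 5.16% and Notch3 at 23.9 ± 6.17%, against 12.2 ± 0.616% for Notch3 in steady RPF. The sum over the 3 receptors was 98.1 ± 18.2 CPM per kb in FRC, 107 ± 10.8 in steady RPF and 100.1 ± 10.2 in depleted RPF, so the groups' sums differed by less than their SDs while their composition did not overlap for Notch1. These shares depend on the transcript length used: with the median transcript length of the deposited table, which is 406 bases for Notch1, Notch1 would hold 85.9% in FRC, 97.6% in steady RPF and 95.7% in depleted RPF.

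**Figure D2:**
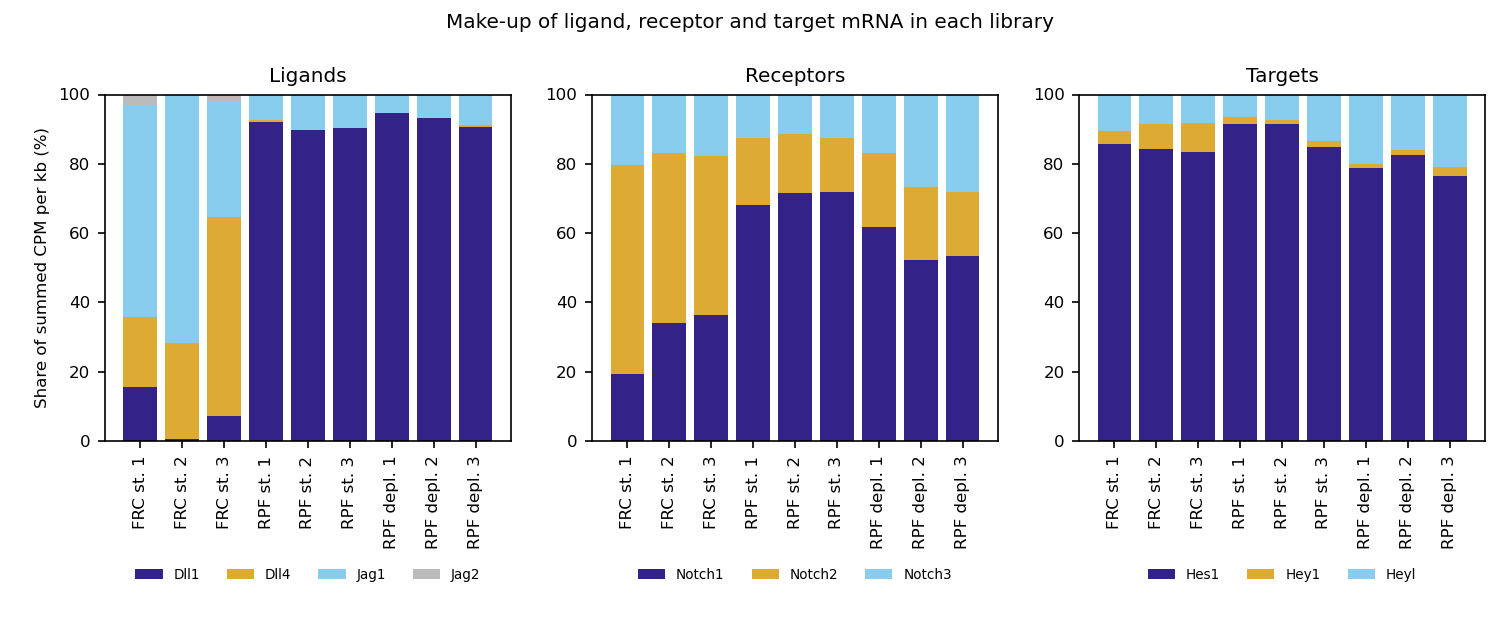
Share of each gene in the summed CPM per kb of the ligands, receptors and targets (vertical axis, percent) for each of the 9 libraries (bars). Dll1 fills 89.7% or more of every RPF bar among ligands, and Notch1 fills 52.3% or more of every RPF bar but 36.2% or less of the FRC bars among receptors.

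Of the targets, Hes1 was high in steady RPF and fell after depletion. Hes1 (chromosome 16, 30064384 to 30067796, plus strand), a basic helix-loop-helix repressor and a widely used readout of Notch activity that other pathways also induce, was at 33.9, 52.0 and 64.6 CPM in FRC. Steady RPF had 156, 189 and 163 CPM and depleted RPF 101, 95.9 and 76.5 CPM. The 3 groups did not overlap, with depleted RPF in between. Steady RPF exceeded FRC 3.38-fold (log2 1.76, SE 0.233, edgeR adjusted p = 0.000592), in all 16 alternatives. After depletion the level fell 1.86-fold (log2 -0.90, SE 0.228, adjusted p = 0.0224), and depleted RPF remained above FRC (log2 0.86, SE 0.228, adjusted p = 0.0174). The fall no longer passed without steady RPF replicate 2 (adjusted p = 0.0848) or 3 (0.0569), or without depleted replicate 2 (0.0593) or 3 (0.0827). The excess over FRC no longer passed without depleted replicate 1 (0.0571) or 2 (0.0524).

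Heyl did not move with Hes1 after depletion. Heyl (chromosome 4, 123233556 to 123249875, plus strand), a HEY family repressor known as a NOTCH3 target in mural cells, was at 12.7, 16.4 and 19.9 CPM in FRC, 33.7, 46.7 and 80.0 CPM in steady RPF, and 78.7, 57.8 and 65.0 CPM in depleted RPF. Both RPF groups stood above FRC and overlapped each other. Steady RPF exceeded FRC 3.27-fold (log2 1.71, SE 0.328, adjusted p = 0.0049) and depleted RPF 4.11-fold (log2 2.04, SE 0.332, adjusted p = 0.00144), each in all 16 alternatives. Depleted against steady RPF differed by 0.33 on the log2 scale (95% interval -0.39 to 1.05, adjusted p = 0.54). Hes1 and Heyl were not tested against each other.

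Hey1 was scarce, at 2.49, 7.20 and 10.8 CPM in FRC, 6.39, 4.34 and 5.62 CPM in steady RPF, and 2.44, 2.86 and 4.04 CPM in depleted RPF. The depleted libraries lay below the steady RPF libraries, but the log2 difference of -0.81 (95% interval -2.21 to 0.60) did not pass (adjusted p = 0.425). Per kb, Hes1 was the main target in every group, with 84.5 ± 1.25% of the summed level in FRC, 89.2 ± 3.83% in steady RPF and 79.3 ± 2.98% in depleted RPF. The share of Heyl was 9.11 ± 1.14%, 9.04 ± 3.85% and 19.0 ± 2.61% in the same order.

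Counted together, 4 of the 10 genes were higher (Dll1, Notch1, Hes1 and Heyl) and 1 lower (Notch2) in steady RPF than in FRC, where 11.5% of all 15103 genes were called higher and 14.4% lower. In either direction 25.9% of all genes were called there. After depletion 1 of 10 rose (Notch3) and 1 of 10 fell (Hes1), beside 11.1% and 9.96% of all genes (21% in either direction), so the members were called about as often as genes in general. Depleted RPF against FRC gave 3 higher (Dll1, Hes1 and Heyl) and 1 lower (Notch2), beside 16.9% and 18.8% (35.8% in either direction). Libraries without overlap between groups were more common than calls: 4 members lay above and 3 below in steady RPF against FRC (21.5% and 23.1% of all genes), 2 above and 3 below in depleted against steady RPF (21.4% and 23%), and 4 above and 2 below in depleted RPF against FRC (24.5% and 25.8%). The members' median log2 fold changes were -0.38 for steady RPF against FRC, 0.24 for depleted against steady RPF and 0.07 for depleted RPF against FRC, and those of all genes tested were -0.02, -0.09 and -0.06. The 3 comparisons share libraries with one another, so their calls are not independent.

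**Figure D3:**
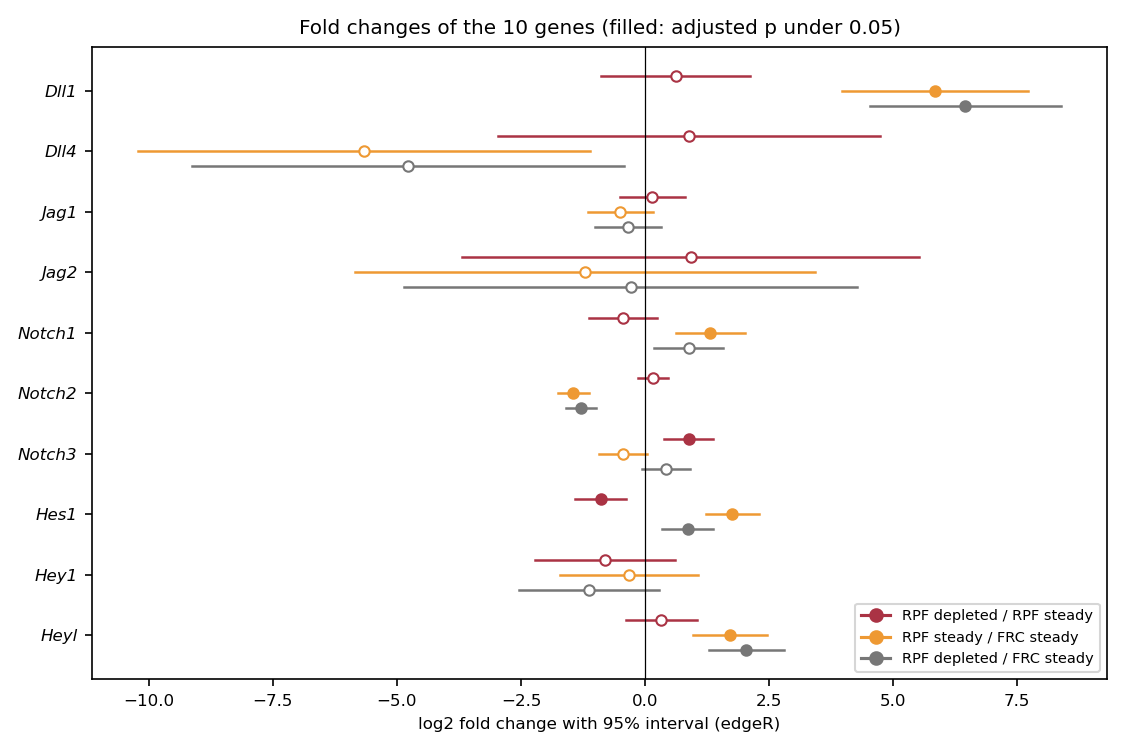
Log2 fold changes (horizontal axis) of the 10 genes with 95% intervals from edgeR, 3 comparisons per gene, filled where the adjusted p is under 0.05. Dll1 at 5.84 and Dll4 at -5.66 mark the ends for steady RPF against FRC, and the interval of Dll4 is far wider than that of Notch2.

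Markers of other cell types were read beside these genes. Endothelial cells carry Dll4, Notch1 and Hey1, and 15 endothelial markers summed to 227 to 282 CPM in FRC, 710 to 739 CPM in steady RPF and 709 to 764 CPM in depleted RPF. Eng, which fibroblasts also carry, made up most of it, followed by Tek. Without Eng the sums were 75.9 to 110.0 CPM, 104 to 214 CPM and 61.4 to 83.3 CPM. In FRC, 2 of the 15 (Kdr and Erg) had 0 counts, which over the group allows up to 0.0313 CPM each. Steady RPF had none at 0 and depleted RPF 1 (Emcn, up to 0.0257 CPM).

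Most endothelial markers were not arranged like Dll4. In steady RPF against FRC, 3 of the 14 tested were higher (Kdr, Stab2 and Eng) and 0 lower by edgeR (1 lower at an unadjusted p under 0.05, with DESeq2 and with limma-voom), beside 11.5% and 14.4% of all genes, and their median log2 fold change was 1.56. Stab2, a receptor of sinusoidal endothelium, was at 0.121, 0.921 and 0.209 CPM in FRC and 12.9, 31.6 and 8.005 CPM in steady RPF. Egfl7 (log2 3.08, adjusted p = 0.0693) and Cldn5 (log2 2.01, adjusted p = 0.23) did not pass. Emcn, picked out after its values were seen and not called (log2 -4.72, adjusted p = 0.114) in that comparison, had the pattern of Dll4. This gene, a sialomucin of venous and capillary endothelium, was at 6.44, 15.4 and 24.9 CPM in FRC replicates 1, 2 and 3 and at 1.72, 0.0199 and 0 CPM in steady RPF, and Dll4 had the same highest and lowest libraries in both groups. In depleted RPF Emcn had 0 counts in all libraries, while Dll4 had 124 counts in replicate 3. Cdh5, a junction protein of all endothelium, was at 0.0304, 0.375 and 1.43 CPM in FRC, and Pecam1 (CD31), used in the sort stain, was at 6.13, 10.6 and 3.37 CPM. Cdh5 thus shared the highest and lowest FRC libraries of Dll4 and Pecam1 did not. In steady RPF this was reversed. There Pecam1, at 7.94, 3.44 and 0.232 CPM, had the order of Dll4, and Cdh5, at 0.213, 1.60 and 4.13 CPM, the opposite order. Neither was called in steady RPF against FRC (Pecam1 log2 -0.79, edgeR adjusted p = 0.737, and Cdh5 log2 1.69, adjusted p = 0.575). The part of endothelial RNA in the Dll4 values was not tested. Kdr was at 9.86 to 12.2 CPM in steady RPF and 0.594 to 12.2 CPM in depleted RPF.

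Mural markers moved with Notch3 in part. The 11 mural and contractile markers summed to 3120 to 4770 CPM in FRC, 1420 to 1750 CPM in steady RPF and 4730 to 7070 CPM in depleted RPF, with Acta2 and Des the most abundant. Without Acta2 the sums were 2700 to 3590, 1250 to 1460 and 2340 to 2790 CPM, and depleted RPF still lay above steady RPF. In depleted against steady RPF, 4 of the 10 tested rose (Acta2, Tagln, Mcam and Des) and 3 fell (Kcnj8, Abcc9 and Ndufa4l2), beside 11.1% and 9.96% of all genes. Acta2 was at 340, 169 and 257 CPM in steady RPF and at 2386, 4280 and 3940 CPM in depleted RPF. Depleted replicate 1 was the lowest of its group for both Notch3 and Acta2. Rgs5, a defining pericyte marker, was at 269 to 374 CPM in FRC and at 0.197 CPM or less in all RPF libraries. The part of mural cells in the Notch3 rise was not tested.

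**Figure D4:**
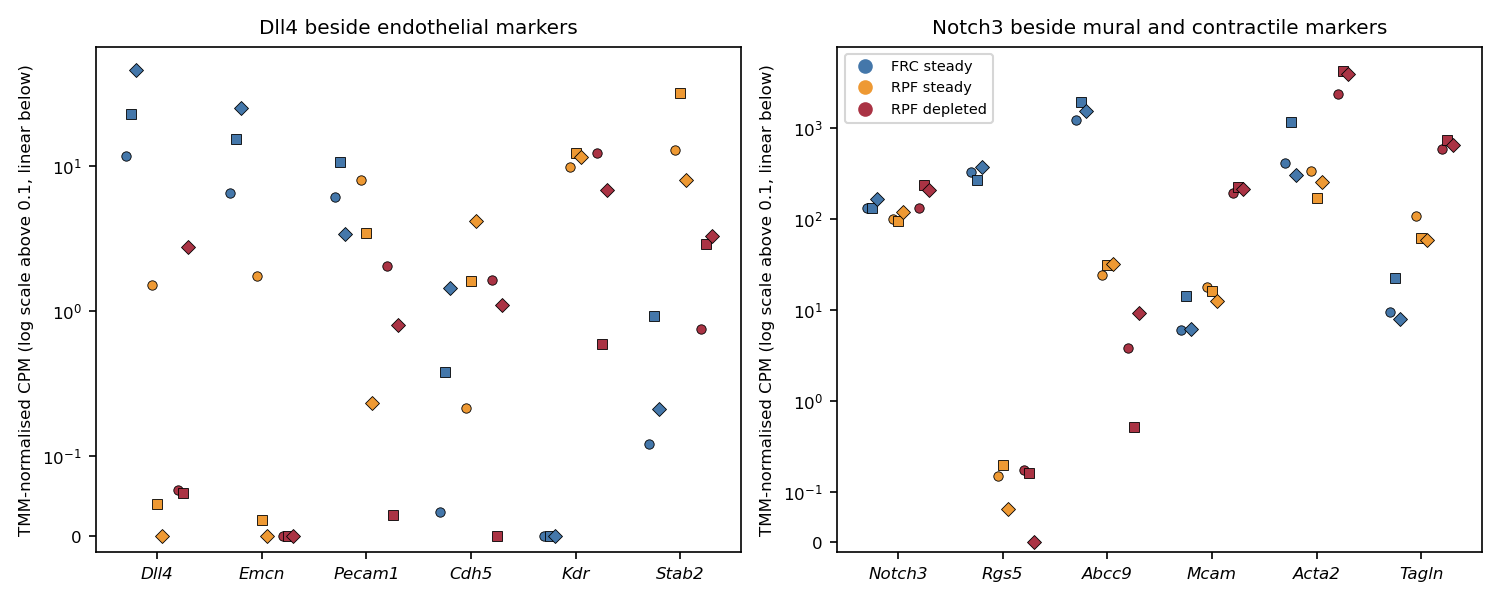
TMM-normalised CPM (vertical axes, logarithmic above 0.1 and linear below) of Dll4 beside endothelial markers and of Notch3 beside mural and contractile markers, 1 point per library (circle, square and diamond for replicates 1, 2 and 3). Emcn and Dll4 share their highest FRC library, while Kdr (0 counts in FRC) and Stab2 are higher in steady RPF. Rgs5 is at 0.197 CPM or less in RPF, where Acta2 and Notch3 are both higher after depletion.

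Markers of blood cells and of other stroma were summed in the same way. The 10 red pulp macrophage markers, led by Mertk and Hpgd, summed to 81.1 to 104 CPM in FRC, 285 to 341 CPM in steady RPF and 80.5 to 119 CPM in depleted RPF, where C1qa, Cd5l and Adgre1 had 0 counts (up to 0.0257 CPM each). Mertk held most of the depleted sum and was at 84.0 ± 20.4 CPM in steady and 89.3 ± 14.2 CPM in depleted RPF. Without it the other 9 summed to 57.1 to 77.0 CPM in FRC, 209 to 233 CPM in steady RPF and 3.70 to 16.1 CPM in depleted RPF, which then lay below FRC. Of the 10, 7 fell after depletion by edgeR, beside 9.96% of all genes. By edgeR, DESeq2 or limma-voom 0 rose, with 0 higher at an unadjusted p under 0.05, beside 11.1% of all genes higher by edgeR. This sum, with or without Mertk, is highest in steady RPF, as are Notch1 and Hes1, and its part in their values was not tested. Sums for B cells (Ighm and Cd79b) were 39.8 to 145, 92.2 to 212 and 16.9 to 36.9 CPM in FRC, steady RPF and depleted RPF, and 5.16 to 10.6, 2.08 to 20.2 and 0.781 to 4.88 CPM without Ighm. For T cells (Trac and Lck) they were 9.52 to 25.9, 1.29 to 4.52 and 0.919 to 2.83 CPM. Dendritic cell markers (Zbtb46 and Xcr1) gave 69.1 to 83.9, 85.1 to 133 and 86.6 to 132 CPM, nearly all of it Zbtb46, without which the other 5 summed to 0 to 0.304, 0.0987 to 4.77 and 0.402 to 4.04 CPM. Erythroid markers (Hbb-bs and Hbb-bt) gave 0.507 to 99.1, 168 to 725 and 395 to 625 CPM. Mesothelial markers stayed at or below 11.4 CPM and Ptprc (CD45) at or below 11.3 CPM in every library. The lymph node reticular cell list (Cxcl13, Ccl19, Ccl21a and Il7) summed to 2700 to 3150, 87.6 to 144 and 148 to 255 CPM, or 1640 to 1800, 33.4 to 60.6 and 19.3 to 24.9 CPM without Cxcl13, and the splenic fibroblast list, which holds Wt1, to 1.77 to 6.16, 1210 to 1440 and 469 to 610 CPM. For 3 against 3 libraries an exact permutation test of such sums cannot go below p = 0.1.

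The rest of the pathway was read from lists of genes by step. Of all genes tested, edgeR called 11.5% higher and 14.4% lower in steady RPF than in FRC. After depletion it called 11.1% higher and 9.96% lower. Of 10 receptor cleavage genes, Adam10, the protease that makes the ligand-induced cut, was the 1 called higher in steady RPF than in FRC. It was at 50.5, 43.4 and 39.4 CPM in FRC, 94.1, 97.3 and 105 CPM in steady RPF, and 48.2, 53.1 and 64.9 CPM in depleted RPF. Adam10 was thus higher in steady RPF than in either other group, by 2.22-fold over FRC (log2 1.15, adjusted p = 0.000946), and it fell 1.78-fold after depletion (log2 -0.83, adjusted p = 0.00704). The gamma-secretase genes Psen2 (log2 -1.88, adjusted p = 7.24e-05) and Ncstn (log2 -0.48, adjusted p = 0.0223) were lower in steady RPF than in FRC. After depletion Furin, the protease that matures Notch receptors in the Golgi, rose from 127 ± 8.31 to 234 ± 39.2 CPM (log2 0.89, adjusted p = 0.00257). Aph1b and Aph1c, near-identical gamma-secretase genes between which reads can be split, fell: Aph1b from 16.6 ± 3.71 to 4.96 ± 2.15 CPM (adjusted p = 0.0481) and Aph1c from 2.25 ± 1.67 CPM to 0 counts, which allows up to 0.0257 CPM (adjusted p = 0.0459).

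Glycosylation genes set which ligands a receptor answers to. Of the 5 tested of 6, only Eogt, an O-GlcNAc transferase for Notch repeats, was higher in steady RPF than in FRC (37.7 ± 6.08 against 18.7 ± 3.98 CPM, log2 1.01, adjusted p = 0.0091), and 0 were lower (edgeR, with 1 lower at an unadjusted p under 0.05 and 0 by DESeq2 and limma-voom). Of all genes, edgeR called 11.5% higher and 14.4% lower in that comparison. After depletion 0 of 5 were called in either direction by edgeR, DESeq2 or limma-voom, with 0 at an unadjusted p under 0.05. There edgeR called 21% of all genes in either direction. The Fringe gene Lfng was at 2.42 ± 1.15 CPM in steady RPF and 5.01 ± 0.615 CPM in depleted RPF (log2 1.05, adjusted p = 0.428).

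Ligand and receptor trafficking genes are the ubiquitin ligases and adaptors that control endocytosis. Of 12 tested, 1 was higher and 2 lower in steady RPF than in FRC, beside 11.5% and 14.4% of all genes. Neurl1a was higher in steady RPF (8.30 ± 4.64 CPM, against 3 counts in all FRC libraries together, adjusted p = 0.000905). The Notch-binding adaptor Numbl (79.6 ± 13.1 CPM in FRC, 3.79-fold lower in steady RPF, log2 -1.92, adjusted p = 0.000283) and the Deltex gene Dtx3 (30.7 ± 4.51 and 15.5 ± 0.502 CPM, adjusted p = 0.0239) were lower. After depletion Dtx3 fell further to 6.19 ± 1.44 CPM (log2 -1.33, adjusted p = 0.00757), and Mib2, a ligase for Delta ligands, fell from 73.0, 75.6 and 49.6 CPM to 27.7, 32.8 and 38.6 CPM (adjusted p = 0.0173). After depletion 0 of the 12 rose by edgeR, DESeq2 or limma-voom, with 0 higher at an unadjusted p under 0.05. By edgeR 11.1% of all genes rose and 9.96% fell.

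In the nucleus, Rbpj, the DNA-binding partner of the Notch intracellular domain, was at 23.8 ± 9.31 CPM in FRC, 13.4 ± 4.26 CPM in steady RPF and 11.1 ± 2.86 CPM in depleted RPF, and neither comparison with steady RPF passed (adjusted p = 0.161 against FRC, 0.691 for depletion). Of 21 nuclear complex genes, 1 rose and 3 fell after depletion, a share near the 21% of all genes called in either direction. Among them were TLE genes, Groucho corepressors that HES proteins recruit. Tle3 rose from 30.8 ± 8.64 to 72.3 ± 15.2 CPM (log2 1.23, adjusted p = 0.00905). Tle4 fell from 55.1 ± 12.6 to 15.5 ± 3.31 CPM (log2 -1.83, adjusted p = 0.00221), and Tle2 fell from 44.5 ± 0.380 to 5.09 ± 2.36 CPM (log2 -3.13, adjusted p = 0.000546). Maml2, a Mastermind coactivator, also fell and was at 11.5 ± 1.19 CPM before and 3.60 ± 1.17 CPM after (log2 -1.67, adjusted p = 0.0221). In steady RPF against FRC, Tle4 was higher (log2 1.19, adjusted p = 0.0144), and Tle1 (log2 -1.35, adjusted p = 0.00652), Tle3 (log2 -0.92, adjusted p = 0.0265) and the acetyltransferase gene Crebbp (log2 -0.52, adjusted p = 0.0409) were lower.

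Other genes described as Notch targets were called in both directions. Of the 7 tested of 10, 0 were higher in steady RPF than in FRC (edgeR, DESeq2 and limma-voom, and 0 at an unadjusted p under 0.05) and 3 were lower: Myc, Id3 and Ccnd1, each of which many other pathways also control. Of all genes, edgeR called 11.5% higher and 14.4% lower there. After depletion 2 of the 7 were higher and 1 lower, beside 11.1% and 9.96% of all genes. Myc was at 1513, 1808 and 1848 CPM in FRC, 76.0, 44.2 and 39.1 CPM in steady RPF and 279, 253 and 232 CPM in depleted RPF. It was 32.5-fold lower in steady RPF than in FRC (log2 -5.02, adjusted p = 3.62e-06) and rose 4.79-fold after depletion (log2 2.26, adjusted p = 0.000301). Id3 rose from 545 ± 44.5 to 1018 ± 123 CPM after depletion (log2 0.90, adjusted p = 0.000985), while Hes6 fell from 18.2 ± 0.806 to 8.45 ± 2.58 CPM (log2 -1.11, adjusted p = 0.0373), in the direction of Hes1. Hes6 was at 11.2 ± 0.413 CPM in FRC, where every library lay below steady RPF (log2 0.70 for steady RPF against FRC, adjusted p = 0.144). Myc and Hes1 therefore stood in opposite order across the groups.

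Of the other ligands, the receptor Notch4 and Notch-binding matrix proteins, 4 of 7 could be tested. Mfap2 and Mfap5, microfibril proteins that bind Jagged1 and Notch1, were 14.2-fold and 49.7-fold lower in steady RPF than in FRC (adjusted p = 4.21e-06 and 0.00422), and Mfap2 fell further after depletion, from 11.9 ± 2.49 to 0.530 ± 0.0789 CPM (adjusted p = 9.97e-06). In this list 0 genes were higher in either comparison by edgeR, DESeq2 or limma-voom, with 0 higher at an unadjusted p under 0.05. Of all genes, edgeR called 11.5% higher and 14.4% lower in steady RPF against FRC, and 11.1% and 9.96% after depletion. Notch4, an endothelial receptor, was at 0.866 ± 1.33 CPM in FRC, 4.12 ± 1.80 CPM in steady RPF and 0.699 ± 0.779 CPM in depleted RPF, with no call (adjusted p = 0.416 and 0.383).

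**Figure D5:**
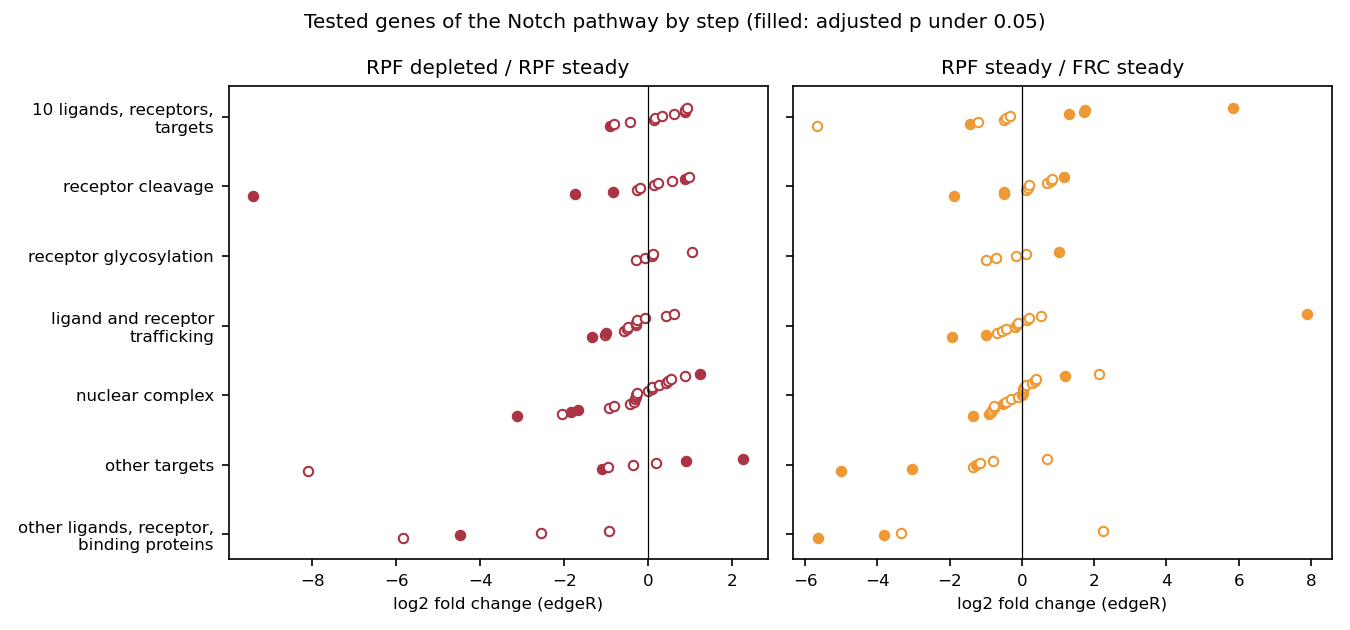
Log2 fold changes (horizontal axes, edgeR) of every tested pathway gene by step, for depleted against steady RPF and for steady RPF against FRC, 1 point per gene and filled where the adjusted p is under 0.05. Called genes lie on both sides of 0 in the cleavage and nuclear steps. For depleted against steady RPF, the point at the far left of the cleavage row is Aph1c, which had 0 counts after depletion.

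The genes with the pattern most like each called member were ranked by Pearson r of log2(CPM + 0.5) over the 9 libraries, which fall into 3 groups. For Dll1 they were Rasgrp2 (r = 0.990) and Aldh1b1 (r = 0.989), and for Notch2 they were C3 (r = 0.995) and Ptx3 (r = 0.993). Notch1 was closest to Smyd4 (r = 0.987) and Tmem165 (r = 0.98), Hes1 to 4632415L05Rik (r = 0.98) and Carmn (r = 0.977), and Heyl to Ccdc12 (r = 0.986) and Zfp661 (r = 0.974). Notch3 had the fewest like it: Gm2000 (r = 0.956) and Pnkd (r = 0.936), with 1 gene above 0.95, against 149 for Dll1 and 406 for Notch2.

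Some reads could belong to genes that overlap the members. It is not recorded in the labels or the file whether the counting used strand. Gm42820 lies on the same strand as Notch2 and shares 541 exonic bases with it, so strand could not separate these 2 genes. The overlapping genes of Dll1 (A930024N18Rik), Dll4 (Gm14207), Notch1 (0610009E02Rik and Gm13568), Notch2 (Gm42820) and Notch3 (Gm17276) held at most 71, 103, 37, 2, 114 and 93 counts in any library. These counts do not limit how many shared reads were given to a member. For Dll4 in RPF, where most libraries had 0 or 2 counts, such reads could not be told from its own.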

How the data were processed

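Poly(A) RNA of 9 mouse libraries (3 groups of 3, each library 2 mice) was sequenced and counted per gene by the authors. The deposited table holds raw counts per gene, per the file header. It also holds a median transcript length in bases, which the authors deposited without saying how it was taken. Cutadapt 1.10, Bowtie2 2.2.8, STAR 2.5.3a, HTSeq 0.6.1p1 and the build mm10 are named in the submitters' processing notes. Annotation release and strand setting: not given in the sources used here, for any library. The 24 other columns of per-sample values in the table were not used.

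Groups were taken from the sample titles, and replicates were numbered in accession order, so a number names a library and pairs nothing. No 2 libraries held identical counts. Counts were tested with edgeR 4.0.16 in R 4.3.3 (filterByExpr, TMM, glmQLFit with robust priors, glmQLFTest, two-sided) in 1 fit of all 9 libraries with group as the only term and 6 residual degrees of freedom, with Benjamini-Hochberg adjustment over 15103 genes. Called means an adjusted p under 0.05. CPM were computed with TMM-scaled library sizes, and intervals for fold changes are 95%. Levels per kb used the longest coding transcript of GENCODE M21. Steps were tested on simulated data. Limits at 0 counts are 3 counts and cover counting error only.

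The 10 members and all lists were chosen with earlier results of these data known. All members are named. From each pathway list up to 4 called genes with the smallest p are named for steady RPF against FRC and for depleted against steady RPF, and Rbpj whatever its result. For depleted RPF against FRC the pathway lists are not described. From each list of another cell type the 2 most abundant genes are named. For each member called and at 10 CPM or more in its highest group the 2 genes most like it are named. The marker genes plotted beside Dll4 and Notch3, the gene Lfng and the gene Notch4 were named after their values were seen. Alternatives were other scalings, other filters, priors without robust fitting, a term for Y-linked reads, the compared groups alone, DESeq2 1.42.0, limma-voom (limma 3.58.1) and each library left out. Promoter sequences were available for 7 of 10 members from RefSeq.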

Additional observations from a re-analysis of the deposited data

How the results depend on the processing

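No paired analysis was possible because the labels give no replicate numbers that the groups share. Each comparison was recomputed in 16 alternatives. Of the members' log2 fold changes, 434 kept their direction and their side of the threshold, 20 passed where they had not, 10 no longer passed and 12 changed sign, all 12 of genes that were not called. With total count scaling, which moved the median of all genes from -0.02 to 0.55 for steady RPF against FRC, from -0.06 to 0.34 for depleted RPF against FRC and from -0.09 to -0.26 for depletion, the sign changed for Jag1 (-0.019) and Notch2 (-0.017) after depletion, for Jag1 (0.078), Notch3 (0.14) and Hey1 (0.28) in steady RPF against FRC, and for Jag1 (0.0585) and Jag2 (0.12) in depleted RPF against FRC. That scaling called 5 members higher in depleted RPF than in FRC. It called 3935 genes higher and 1342 lower in steady RPF than in FRC, against 1734 and 2174, and 3933 and 2125 in depleted RPF against FRC, against 2557 and 2843. After depletion it called 1297 and 1864, against 1671 and 1505. Leaving out a library turned Dll4 after depletion (-3.16 without depleted replicate 3, range -3.16 to 5.18), Hey1 in steady RPF against FRC (0.18 without FRC replicate 3, range -0.72 to 0.18), Jag1 in depleted RPF against FRC (0.031 without FRC replicate 2, range -0.58 to 0.031) and Jag2 there (0.12 without FRC replicate 1, 0.30 without depleted replicate 2, range -0.89 to 0.30).

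Members called after depletion numbered 2 higher (Dll1 joining) with the compared groups alone and with limma-voom, and 2 lower (Notch1 joining) with the compared groups alone. Leaving out each library gave 0 to 1 higher and 0 to 1 lower. In steady RPF against FRC 2 were lower (Dll4 joining) with the compared groups alone, DESeq2 and limma-voom, and 1 to 2 when a library was left out. In depleted RPF against FRC 2 were lower with DESeq2 and limma-voom, and 1 to 2 when a library was left out. Without its most abundant gene, the macrophage sum differed between depleted RPF and FRC by -0.00459% of counts, and the lymph node list between depleted and steady RPF by -0.00343%. Shares by exon union or deposited length were added after seeing the data, and by exon union Notch1 held 22.7%, 62.0% and 46.2% of the receptors in FRC, steady RPF and depleted RPF. Depth limits Dll4 and Jag2 in RPF.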

Other observations

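Within FRC, replicate 1 was the lowest and replicate 3 the highest library for Dll4, Notch1, Notch2, Notch3, Hes1, Hey1 and Heyl. For Notch2 and Notch3, replicates 1 and 2 were nearly equal (504.6 and 505.2 CPM, and 130.6 and 132.1 CPM). Dll1 and Jag2 were instead highest in replicate 1, and Jag1 in replicate 2. This order was seen in the data, and its share among all genes was not computed. Notch1 was at 148 CPM in replicate 1 and 400 CPM in replicate 3, and Hes1 at 33.9 and 64.6 CPM. FRC replicate 1 also had 0 counts from the 4 Y-linked genes, and whether the order is tied to these counts was not tested. Steady RPF replicate 1, the other library with almost no Y-linked counts (1), was the lowest of its group for Notch1 (641 CPM), Hes1 (156 CPM) and Heyl (33.7 CPM), but the highest for Dll4 (1.51 CPM) and Hey1 (6.39 CPM). With a term for Y-linked reads in the fit, Notch1 in depleted RPF against FRC passed the threshold (edgeR adjusted p = 0.0458).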
